A study of Homo sapiens with 3 samples.

Results

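The signal recognition particle and its receptor were followed through 8 genes: SRP9, SRP14, SRP19, SRP54, SRP68 and SRP72 of the particle, and SRPR and SRPRB of the receptor. They are 8 of the 20449 genes of a pooled knockout screen, and 24 of its 62916 guides, 3 guides to a gene. MicroRNAs targeted by the library are counted among these genes, here and in all shares of genes below. The genes belong together by function, but they were chosen from the screen with their measured guide abundances in all 3 comparisons known, so their values are given as a description, with no test. The cells were NUGC3, an established cell line from a human gastric cancer, with a GeCKO library of guide RNAs that send the nuclease Cas9 to 1 gene in each cell. The abundance of a guide in genomic DNA, counted in reads, stands for the cells that carry it. The groups were a culture sampled at day 0, one given the solvent DMSO until day 14, and one given 10 nM RTX until day 14. RTX is not spelled out in the labels, and the title of the series concerns antifolate drugs. A treatment note gives the day 0 group 14 days of DMSO, so the sample titles were used. Each group was 1 library, so no difference below has a replicate check.

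The particle is a complex of proteins on an RNA, 7SL. It recognises the hydrophobic signal sequence of a secreted or membrane protein as it leaves the ribosome, slows translation and brings the ribosome to its receptor in the membrane of the endoplasmic reticulum. There the nascent chain passes to the Sec61 channel. SRP54 binds the signal sequence and is a GTPase that pairs with the related GTPase of SRPR, while SRPRB anchors SRPR in the membrane. SRP19 prepares the RNA for SRP54, SRP68 and SRP72 bind the RNA as a pair, and SRP9 and SRP14 form the heterodimer that slows translation.

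The 3 libraries were of similar depth, at 16547572 reads for day 0, 18805737 for DMSO and 17344507 for RTX, and median counts per guide of 230, 251 and 232. A log2 ratio here is that of the deposited normalized values with 5 added to each, which understates the ratio for guides with few reads. The level of a gene is the median over its guides. A value at or beyond 1 or -1, which is 2-fold, was taken as past the limit. Intervals in brackets cover 95% of the counting error of reads only (exact binomial) and use no added count. PCR reads are not independent molecules, so the true error is larger. Guides without a target showed how far abundance moved without a knockout. The middle 95% of 991 such guides lay between -0.97 and 1.11 in DMSO over day 0, between -1.01 and 1.05 in RTX over day 0 and between -1.31 and 1.17 in RTX over DMSO. Their medians were 0.19, 0.11 and -0.10.

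Guides against the particle and its receptor made up a smaller share of the DMSO library than of the other 2. Together the 24 guides took 355 of every 1000000 reads at day 0 (346 to 365), 250.0 of them in DMSO (243 to 257) and 318 in RTX (310 to 326). In DMSO over day 0, 7 of the 8 genes had a median below 0, and SRP9 stood above it. The median over the 8 genes was -0.64, where that of all 20150 genes with at least 2 guides was -0.00089. The 8 genes were split evenly in RTX over day 0, with 4 below and 4 above 0 and a median of -0.07, although SRP9, at 0.04, falls below 0 with equal totals or when scaled to the non-targeting guides. Of the 8 genes, 6 stood above 0 in RTX over DMSO, and the median was 0.60. The comparison of RTX with DMSO shares a library with each of the others, so its values are set beside theirs and not counted as a separate line of evidence.

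One of the 8 genes, SRP54, was past the limit in DMSO over day 0, where 3.42% of all genes were lower at least 2-fold, and none was higher, against 0.109% of all genes. Scaled to the non-targeting guides, SRP14 and SRP72 passed as well, among 5.33% of all genes lower and 0.0347% higher. No gene of the 8 passed in RTX over day 0, where 1.39% of all genes were lower and 0.62% higher (1.95% and 0.402% when so scaled). SRP54 passed there with a filter of 50 reads, at -1.19, and with pooled reads, at -1.24. In RTX over DMSO, SRP54 and SRP72 were higher at least 2-fold, a limit passed by 2.75% of all genes, and none of the 8 was lower, against 0.844% (3.75% and 0.571% when so scaled). Of the 24 guides, 8 were lower at least 2-fold in DMSO over day 0 and 0 higher, where the shares over all guides against genes were 7.6% and 2.3%. For RTX over day 0 the counts were 4 lower and 0 higher, with shares of 5.36% and 3.18%. For RTX over DMSO they were 6 higher and 1 lower, with shares of 7.95% and 5.42%. Since these contrasts led to the choice of the genes, the counts are not read against those shares.

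**Figure D1:**
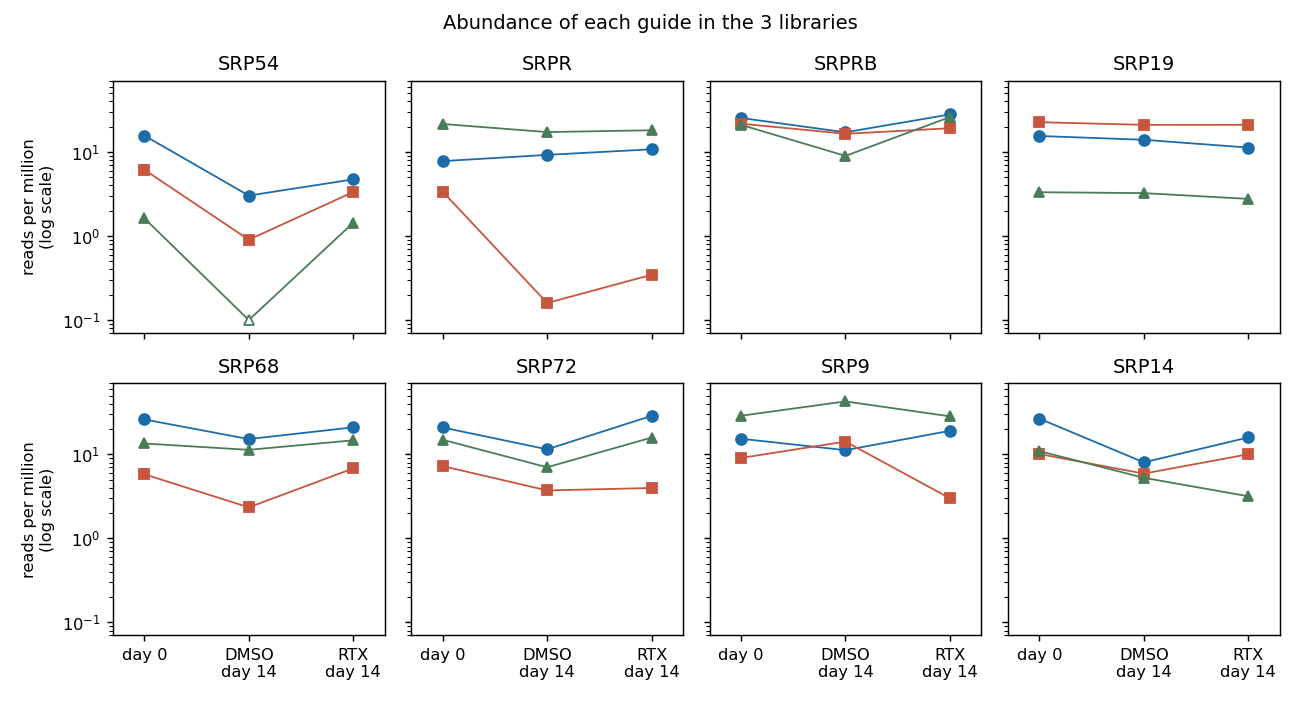
Reads per 1000000 of each of the 3 guides of the 8 genes (circle, square and triangle in order of guide number, log scale) at day 0, in DMSO and in RTX at day 14. The open triangle of SRP54, drawn at 0.1, marks a guide with 0 reads in DMSO; all 3 SRP54 guides are lowest in DMSO, and the 3 SRP19 guides are nearly level.

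SRP54, which reads the signal sequence, was the most depleted of the 8 genes without drug. Guide 54293 was read 260 times at day 0, 57 times in DMSO and 82 times in RTX. Guide 54294 had 102, 17 and 58 reads in the same order, and guide 54295 had 27, 0 and 25. All 3 guides were thus lowest in DMSO, while in RTX the first remained well under its day 0 count, the second was intermediate and the third was near its starting count. The log2 ratios in DMSO over day 0 were -2.25, -2.42 and -2.75. The median of -2.42 ranked 36 from the lowest of 20150 genes. Pooled over guides, SRP54 was at 0.17 times its day 0 abundance in DMSO (0.131 to 0.219).

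Against day 0 the RTX library held the SRP54 guides at -1.61, -0.77 and -0.10, with a pooled ratio of 0.422 (0.35 to 0.508). The 3 guides therefore did not move alike in the drug. The median of -0.77 was the lowest of the 8 genes there. The ratios in RTX over DMSO were 0.62, 1.64 and 2.65, and the median of 1.64 ranked 128 from the highest. That median depended on the processing. It was 1.13 with a filter of 50 reads or without the guide furthest from 0. With a pseudocount of 20 it was 1.16, and with a pseudocount of 1 it was 1.85. The pooled ratio was 2.46 (1.86 to 3.28), close to the 2.22 (1.97 to 2.50) of SRP72. The SRP54 guide with the highest ratio is the one with 0 reads in DMSO. With 3 reads in place of the 0, guide 54295 was 10.0-fold lower in DMSO than at day 0 and 9.18-fold lower than in RTX. That takes its other counts as exact. Within counting error of both libraries, its ratio was at most 0.131 in DMSO over day 0 and at least 6.93 in RTX over DMSO. The best covered guide, 54293, was 1.12-fold to 2.26-fold higher in RTX than in DMSO within counting error.

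SRPR, the receptor subunit whose GTPase meets that of SRP54, rested on guides that disagreed. Guide 54314 began with 129 reads, and ended with 174 in DMSO and 187 in RTX. Guide 54316 had 357, 325 and 315 in the same order. Guide 54315 had counts of 56, 3 and 6. Only this last guide was nearly lost, and it was nearly lost in both day 14 libraries. Its log2 ratio was -3.04 in DMSO over day 0 and -2.48 in RTX over day 0, the lowest log2 ratio of all 24 guides in each. In DMSO over day 0 that rank rests on the 5 added to each value. Guide 54295 of SRP54, at -2.75, had 0 reads in DMSO, so which of these 2 guides fell further is not known. The other 2 SRPR guides lay between -0.29 and 0.51. The range over the 3 SRPR guides in DMSO over day 0, 3.30, was wider than that of 99.1% of the 18094 genes with 3 guides, where the median range was 0.82. The SRPR median was -0.29 in DMSO over day 0, -0.19 in RTX over day 0 and 0.24 in RTX over DMSO. At 3 and 6 reads, a difference between the 2 day 14 libraries for guide 54315 was not detectable at this depth, with a ratio anywhere from 0.471 to 13.6.

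SRPRB, the membrane anchor of the receptor, was the most abundant of the 8 genes at day 0, with 1130 reads. Guide 54317 began with 421 reads, and ended with 323 in DMSO and 486 in RTX. Guide 54318 had counts of 360, 310 and 333. Guide 54319 had counts of 349, 169 and 453. Each guide was lowest in DMSO, and guides 54317 and 54319 were more abundant in RTX than at the start. The median log2 ratio was -0.53 in DMSO over day 0 and 0.20 in RTX over day 0, the highest of the 8 genes in the latter. The pooled ratio was 0.636 in DMSO over day 0 (0.58 to 0.696) and 1.12 in RTX over day 0 (1.03 to 1.21). In RTX over DMSO the median was 0.72 and the guides ranged from 0.24 to 1.53.

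SRP19, which shapes the RNA for SRP54, had guides that hardly moved without drug. Guide 54290 began with 257 reads, and ended with 263 in DMSO and 196 in RTX. In the same order, guide 54291 had 375, 396 and 366 reads, and guide 54292 had 55, 61 and 48. After scaling, the log2 ratios of the 3 guides in DMSO over day 0 lay between -0.12 and -0.01, a range of 0.11 that was narrower than that of all but 1.78% of genes with 3 guides. The median was -0.08 in DMSO over day 0, -0.19 in RTX over day 0 and -0.19 in RTX over DMSO. The pooled ratio in DMSO over day 0 was 0.939, with an interval of 0.844 to 1.04 that includes 1. That in RTX over day 0 was 0.883, with an interval of 0.791 to 0.986 that does not, and guide 54290 was lowest there at 0.759 (0.627 to 0.917). Whether the SRP19 guides cut efficiently was not measured.

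SRP68 and SRP72, which bind the RNA as a pair, both had medians below 0 and inside the limit without drug. SRP72 guides 54299, 54300 and 54301 began with 346, 120 and 247 reads, and ended with 216, 70 and 132 in DMSO and with 499, 69 and 275 in RTX. SRP68 guides 54296, 54297 and 54298 began with 431, 96 and 223 reads, and ended with 286, 44 and 213 in DMSO and with 364, 118 and 255 in RTX. All 6 guides had a lower scaled value in DMSO than at day 0. In RTX, 2 of the 3 guides of each gene were above their day 0 value after scaling, and guide 54300 of SRP72 stayed near its DMSO count. The SRP72 median was -0.89 in DMSO over day 0, with a narrow guide range of -1.03 to -0.82. That of SRP68 was -0.74, with a wider range of -1.19 to -0.22. Their pooled ratios there were 0.525 (0.464 to 0.593) for SRP72 and 0.648 (0.580 to 0.725) for SRP68. The SRP14 median, -0.99, lay nearer to that of SRP72 than the SRP68 median did, so nothing particular to the pair is read from these values.

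In RTX over day 0, SRP72 and SRP68 stood at 0.14 and 0.18. The SRP72 median in RTX over DMSO was 1.17, second to SRP54 among the 8 genes and 342 from the highest of all genes. Its guides were at 1.33, 0.11 and 1.17, so 2 of the 3 carried the value, which was 0.87 as a mean over guides and 0.64 without the furthest guide. The pooled SRP72 ratio was 2.22 (1.97 to 2.50). The SRP68 median in RTX over DMSO was 0.48, with a range of 0.39 to 1.46, and its pooled log2 ratio was 0.58 (0.42 to 0.74).

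SRP9 and SRP14, partners in the heterodimer that slows translation, did not move together. SRP14 guides 54287, 54288 and 54289 began with 441, 167 and 181 reads. They ended with 151, 111 and 99 reads in DMSO and with 276, 174 and 55 in RTX. SRP9 guides 54302, 54303 and 54304 began with 254, 150 and 477 reads, and ended with 211, 267 and 803 in DMSO and with 331, 52 and 492 in RTX. All 3 SRP14 guides were lower in DMSO than at day 0, while 2 of the 3 SRP9 guides were higher. The SRP14 median in DMSO over day 0 was -0.99, just inside the limit, and its pooled ratio was 0.41 (0.361 to 0.465). The SRP9 median was 0.59 there, 660 from the highest of all genes, with a pooled ratio of 1.30 (1.19 to 1.42).

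Each gene of this pair had 1 guide that was lower at least 2-fold in RTX over day 0. SRP14 guide 54289 was lower still in RTX than in DMSO, at -1.64 against day 0, while guides 54287 and 54288 stood at -0.67 and 0.05. SRP9 guide 54303 was higher in DMSO than at day 0, at 0.66, and lower in RTX, at -1.45. Its ratio in RTX over DMSO, -2.12, was the lowest of the 24 guides and the only one past the lower limit there. The other SRP9 guides stood at 0.77 and -0.56 in RTX over DMSO. The range over the SRP9 guides in that comparison, 2.90, was wider than that of 97.5% of genes with 3 guides. The SRP9 median was 0.04 in RTX over day 0, where other scalings turn its sign, and -0.56 in RTX over DMSO, the lowest of the 8 genes in the latter. Those of SRP14 were -0.67 and 0.76.

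**Figure D2:**
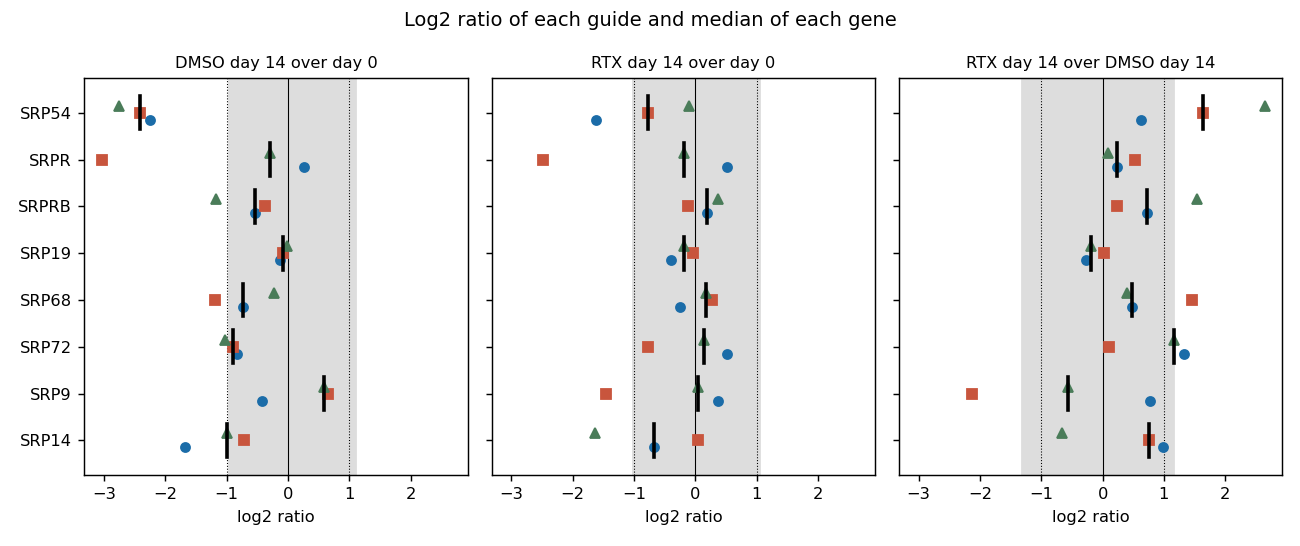
Log2 ratio of each guide (circle, square and triangle as in the plot of abundance) and the gene median (black bar) in the 3 comparisons. The grey band holds the middle 95% of the non-targeting guides and the dotted lines mark the 2-fold limits. All 3 SRP54 guides lie below the band in DMSO over day 0, against 1 of 3 for SRPR and 0 of 3 for SRP19 and SRP9. SRP14, SRP72, SRP68 and SRPRB each have some but not all of their guides below it.

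The order of the medians in DMSO over day 0 ran from SRP54 at -2.42 through SRP14 at -0.99, SRP72 at -0.89, SRP68 at -0.74, SRPRB at -0.53, SRPR at -0.29 and SRP19 at -0.08 to SRP9 at 0.59. The guide ranges of SRP14, SRP72, SRP68 and SRPRB overlapped one another, so these neighbours in the order were not separated. The SRP54 range, -2.75 to -2.25, overlapped that of no other gene except SRPR. The order in RTX over DMSO ran from SRP54 at 1.64 through SRP72, SRP14, SRPRB, SRP68, SRPR and SRP19 to SRP9 at -0.56, and the guide ranges of neighbours overlapped except for SRPR and SRP19.

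The authors' deposited tables give an FDR for each guide, from a test between 2 libraries. For DMSO over day 0, in the authors' deposited table, 9 of the 24 guides were lower at an FDR under 0.05 and 1 higher, where 5.84% and 9.77% of all guides were. The lower guides were all 3 of SRP54, both outer guides of SRP72 by number, and 1 each of SRP14, SRP68, SRPR and SRPRB, and the higher one was SRP9 guide 54304. For RTX over day 0, the authors' deposited table has 4 guides lower and 1 higher, against 4.04% and 11% of all guides. For RTX over DMSO, the authors' deposited table has 9 of the 24 higher and 1 lower, against 13.9% and 4.29%. The same rule also marked some of the 1000 non-targeting guides, per the authors' deposited tables. In DMSO over day 0 it marked 0.9% of them as lower and 17.6% as higher. The shares were 1.5% and 13.5% in RTX over day 0, and 5.3% and 8.3% in RTX over DMSO.

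The genes lie on 8 different chromosomes, in the order SRP9, SRP14, SRP19, SRP54, SRP68, SRP72, SRPR and SRPRB on 1, 15, 5, 14, 17, 4, 11 and 3 (RefSeq annotation of GRCh38.p14, which lists SRPR as SRPRA). Set beside them were their nearest neighbours, the 5 measured genes on each side. The value of a neighbour comes from guides against that neighbour, so it is not a direct measure of the region. Around SRP54 the 10 neighbours had a median of -0.14 in DMSO over day 0, and none was lower than SRP54. Of these 10, 2 were lower at least 2-fold, the lowest at -1.45, a limit passed by 3.42% of all genes. In RTX over day 0, 1 of the 10 was lower than SRP54, and the lowest stood at -1.93. Around SRP14 the median in DMSO over day 0 was 0.15, and none was lower than SRP14. For SRPR the median of the neighbours was -0.30, close to the -0.29 of the gene itself. Of those 10, 2 were lower at least 2-fold, the lowest at -1.10. The annotation lists 5 numbered pseudogenes of SRP14, 3 of SRP68, 2 of SRP72 and 1 of SRP9. A guide that also matches such a copy would cut there too, and that was not tested because guide sequences were not used here.

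Across the 18093 other genes with 3 guides, the 5 nearest to SRP54 by their medians in DMSO over day 0 and RTX over day 0 were EWSR1, HAUS1, NMT1, SOD1 and XRCC5, at Euclidean distances of 0.138 to 0.184. These distances rest on 2 values that share the day 0 library. EWSR1, an RNA-binding protein, stood at -2.38 and -0.64. HAUS1, a subunit of the augmin complex of the spindle, stood at -2.28 and -0.75. NMT1, the N-myristoyltransferase, stood at -2.36 and -0.64. SOD1, the superoxide dismutase, and XRCC5, a subunit of the Ku dimer that binds broken DNA ends, stood at -2.48 and -0.62, and at -2.56 and -0.89. RTX over DMSO is formed from the same libraries as these values, so it is no separate check on the nearness. There the 5 genes ranged from 0.68 for EWSR1 to 1.66 for XRCC5, beside 1.64 for SRP54. The nearness depends on the use of medians: XRCC5 in DMSO over day 0 stood at -1.28 without its furthest guide and -1.18 with pooled reads, and EWSR1 in RTX over day 0 at -1.59 with pooled reads.

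Lists of other genes of protein entry into the endoplasmic reticulum had medians nearer to 0 in DMSO over day 0 and in RTX over DMSO. The 15 genes of the Sec61 channel and its partners had a median of -0.15 in DMSO over day 0, with 2 lower at least 2-fold and 0 higher. SEC61A1, the channel itself, stood at -1.39 with guides from -3.03 to -0.23, and SEC61G at -1.17 with guides from -1.45 to -0.21. SEC61B, the third subunit, stood at -0.24. SEC61A1, SEC61G and SEC61B stood at -1.11, -0.10 and -0.30 in RTX over day 0, and at 0.27, 0.98 and -0.003 in RTX over DMSO. SEC61A1 was past the limit in both libraries against day 0, but without its guide furthest from 0 it stood at -0.81 in DMSO and -0.86 in RTX. The SEC61G value in DMSO over day 0 was -0.69 without the furthest guide and -0.88 with pooled reads.

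The signal peptidase list, which also holds HM13, is named for the enzyme that removes the signal sequence. Its 6 genes had a median of -0.03 in DMSO over day 0, with none past the limit in any of the 3 comparisons. The 12 of the oligosaccharyltransferase, which adds sugar chains to the entering protein, had a median of -0.12, and 1 was lower at least 2-fold, TMEM258 at -1.62 with guides from -2.13 to -0.26 and -0.55 with pooled reads. The 10 factors that meet the nascent chain at the ribosome had a median of -0.12. There NAA15, of the N-terminal acetyltransferase, stood at -1.74 with guides from -3.25 to 0.57, and at -0.50 with pooled reads. The 10 genes of the membrane protein complex of the endoplasmic reticulum, an insertase for other membrane proteins, had a median of -0.05 with none past the limit.

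The tail-anchored route delivers proteins after translation and without the particle. Its 7 genes had a median of 0.03 in DMSO over day 0, with none past the limit. In RTX over day 0 the median was -0.36, and BAG6, a chaperone of that route, was lower at least 2-fold at -1.91, with guides from -2.22 to 0.93. That value was -0.49 with a filter of 50 reads or without the furthest guide, and -0.53 with pooled reads. BAG6 stood at -1.28 and the list at -0.21 in RTX over DMSO, where the same alternatives gave BAG6 -0.24, -0.24 and -0.21. The medians of the other lists in RTX over DMSO ran from -0.003 for the Sec61 list to 0.29 for the nascent chain factors, beside 0.60 for the particle and its receptor. These lists were set up with results of the screen known, so nothing particular to one of them is read from this.

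**Figure D3:**
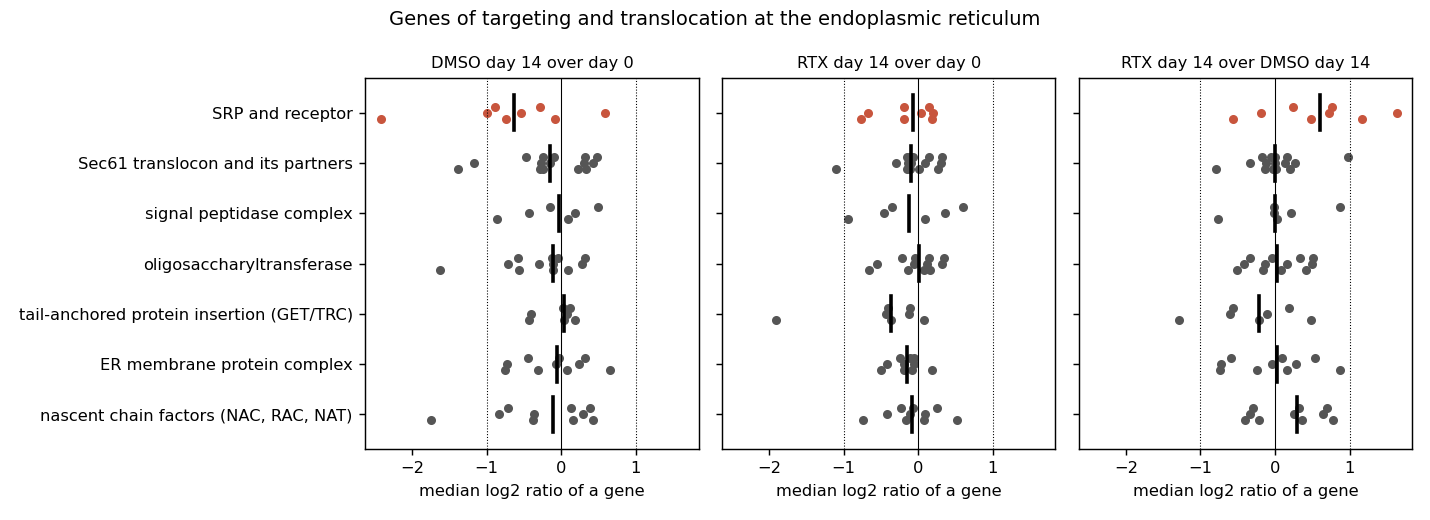
Median log2 ratio of each gene (points) and of each list (black bar) for the particle with its receptor and 6 related lists, in the 3 comparisons. Dotted lines mark the 2-fold limits; the list median of the particle is -0.64 in DMSO over day 0 and 0.60 in RTX over DMSO, while the medians of the 6 other lists lie between -0.15 and 0.03 and between -0.21 and 0.29.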

How the data were processed

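Guides in genomic DNA of NUGC3 were amplified by PCR and sequenced as 1 library per condition, per the labels' protocols. MAGeCK 0.5.7 and the build hg19 are named in the submitters' processing notes; the matching of reads to guides is not stated there or in the files. The deposited tables hold, per guide, a signal of abundance, a read count scaled by the authors with 1 factor for each library of a pair. Whole reads were recovered within a tolerance of 0.1 for at least 99.9968% of the values of a column. The tables also hold an FDR (q-value) per guide, as the authors deposited it. The tables carry no sample names in their columns, so each side was assigned from the name of the comparison.

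Log2 ratios used the deposited values with a pseudocount of 5, for the 62610 guides that reached 10 normalized reads at day 0. All 24 guides passed. Genes needed at least 2 guides. Left out of the gene medians and the shares of genes were 23 date-like names with 72 guides. Their guides were not left out of the shares over all guides. The ratio script was tested on simulated data. The 8 genes and the 6 other lists were chosen with earlier results of these data known. Named beside the 8 were SEC61A1, SEC61B and SEC61G, list genes past the 2-fold limit, and the 5 genes nearest to SRP54. The neighbours came from RefSeq, which placed 19111 of 20150 genes, 2026 of them through a synonym. As an alternative, edgeR 4.0.16 ran an exact test on the recovered reads of each guide, with 1 dispersion from the non-targeting guides; it compares 2 libraries, not the conditions. Other tools were Python 3.11.15, pandas 2.3.3 and scipy 1.17.1.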

Additional observations from a re-analysis of the deposited data

How the results depend on the processing

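Of 114 alternative values of the main counts and medians, 86 stayed close. Close means within 1.5 times a count or, for a median, within the counting error of the reads pooled over its guides. Some of the 114 could not differ, because all 24 guides pass the filter and its removal changes nothing for them. A count of 0 under both settings was also scored as unchanged, so the 86 is not a measure of robustness. In DMSO over day 0, where 1 gene (SRP54) was lower, 2 were with a pseudocount of 1, with equal totals and with pooled reads (SRP14 joining; 3.79%, 3.62% and 2.36% of all genes), 3 when scaled to the non-targeting guides (SRP14 and SRP72 joining; 5.33%) or with the mean over guides (SRP14 and SRPR joining; 3.66%), and 4 at a 1.5-fold limit (9.34%), where 1 was higher (3.32%). The median of the 8 genes was then -0.83 scaled to the non-targeting guides, -0.82 with the mean and -0.47 without the guide furthest from 0. In RTX over day 0, 1 gene (SRP54) was lower with a filter of 50 reads, which removes its guide of 27 reads, or with pooled reads (1.38% and 0.754% of all genes), and 2 at a 1.5-fold limit (6.48%). The median there was -0.18 scaled to the non-targeting guides, -0.13 with equal totals, -0.28 with the mean and 0.0033 without the furthest guide. In RTX over DMSO, 1 gene (SRP54) was higher with the mean or without the furthest guide (2.85% and 0.978%), and 4 at a 1.5-fold limit (9.97%). The median was 0.70 scaled to the non-targeting guides and 0.30 without the furthest guide. Lower guides at a 1.5-fold limit numbered 13, 7 and 2 in DMSO over day 0, RTX over day 0 and RTX over DMSO, against 16.4%, 14.2% and 15.5% of all guides against genes. By edgeR's exact test at an adjusted p under 0.05, 4, 1 and 0 of the 24 guides were lower. Of all 62610 guides tested, 1289, 416 and 245 were lower, which is 2.06%, 0.664% and 0.391%. In RTX over DMSO it called 1 of the 24 higher, 54295 of SRP54, and 577 guides in all, which is 0.922%. Scaling to the non-targeting guides shifts the median of all genes by -0.19, -0.11 and 0.10. Signs changed for SRP9, SRP68, SRP72 and SRPR under at least 1 alternative, all at medians inside the limit. Of the gene values, 40 of 216 for the 8 genes moved beyond the counting error of their pooled reads. For named genes outside the 8, 89 of 297 did. None of the latter past the limit changed sign. Calls of SEC61A1, SEC61G, TMEM258, NAA15, BAG6, HAUS1 and XRCC5 were lost under at least 1 alternative. No paired analysis was possible because each condition is 1 library. Depth limits most the guides under 60 reads at day 0, 54295 of SRP54, 54315 of SRPR and 54292 of SRP19.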
